A study of Rattus norvegicus and Heterocephalus glaber with 6 samples.

Results

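The rows described here are the ATP-binding cassette (ABC) genes of liver. They were chosen by symbol: every row named Abc followed by a subfamily letter from A to G and a number. The rule leaves out Abcb11 and the phosphatidylcholine exporter Abcb4. This rule found 49 rows among the 22549 of each rat table, with 1 row per symbol. It found 0 rows among the 734 of each naked mole rat table as used here, so ABC transporters of naked mole rat were not analysed and no difference between the species was tested for them. The study sequenced polyadenylated liver RNA of naked mole rats, a burrowing rodent that tolerates low oxygen, and of rats, with 3 libraries per species. Animals of both species had spent 8 hours at 8% oxygen. Libraries from normoxia are named in the series design and were not used here, so no value below is an effect of oxygen. The labels give no strain, age or sex, and do not say whether each library came from its own animal, so the spread between libraries may be partly technical. The names rat 1, rat 2 and rat 3 below stand for libraries.

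ABC proteins bind and split ATP, and most use it to move a substrate across a membrane. In liver they load cholesterol and phospholipid onto lipoproteins, pump conjugates and drugs out across the canalicular or the blood-facing membrane, carry fatty acyl-CoA into peroxisomes, and serve heme synthesis in mitochondria. Subfamilies E and F keep the ATP-binding part but have no membrane part, and act on ribosomes. Under low oxygen, hypoxia-inducible factors bind DNA at a short core, ACGTG or GCGTG.

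Promoter windows are shown for the rows on which the results turn. These are Abcc6 and Abcd3, the most abundant members, the neighbouring Abcb1b and Abcb1a, whose spread between libraries was wide, and Abcg8, whose window also holds the start of its partner Abcg5. Each window runs from 250 bases before to 50 bases after a RefSeq start on the rat build GRCr8 and is written 5′ to 3′ on the gene's strand. Capitals mark ACGTG or GCGTG on either strand, and positions count the start itself as 0.
Abcc6, chr1:105637846-105638145, strand -: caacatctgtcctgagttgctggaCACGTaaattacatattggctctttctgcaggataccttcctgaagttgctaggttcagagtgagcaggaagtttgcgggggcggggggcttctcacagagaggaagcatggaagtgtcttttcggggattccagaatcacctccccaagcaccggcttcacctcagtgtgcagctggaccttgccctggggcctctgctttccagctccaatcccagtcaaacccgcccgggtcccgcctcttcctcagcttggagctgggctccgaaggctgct
Abcd3, chr2:212590330-212590629, strand -: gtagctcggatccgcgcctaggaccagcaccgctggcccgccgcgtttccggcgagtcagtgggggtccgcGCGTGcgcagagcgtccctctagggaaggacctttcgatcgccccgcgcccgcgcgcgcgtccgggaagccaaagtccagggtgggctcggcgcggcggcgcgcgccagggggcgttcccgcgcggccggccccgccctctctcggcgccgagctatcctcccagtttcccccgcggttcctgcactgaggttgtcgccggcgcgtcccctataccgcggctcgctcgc
Abcb1b, chr4:26279980-26280279, strand -: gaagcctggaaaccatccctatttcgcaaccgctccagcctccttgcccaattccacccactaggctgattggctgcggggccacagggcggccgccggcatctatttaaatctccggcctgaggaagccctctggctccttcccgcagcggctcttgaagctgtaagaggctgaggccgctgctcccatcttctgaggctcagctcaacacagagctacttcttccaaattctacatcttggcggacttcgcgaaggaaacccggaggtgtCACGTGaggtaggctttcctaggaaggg
Abcb1a, chr4:26397599-26397898, strand -: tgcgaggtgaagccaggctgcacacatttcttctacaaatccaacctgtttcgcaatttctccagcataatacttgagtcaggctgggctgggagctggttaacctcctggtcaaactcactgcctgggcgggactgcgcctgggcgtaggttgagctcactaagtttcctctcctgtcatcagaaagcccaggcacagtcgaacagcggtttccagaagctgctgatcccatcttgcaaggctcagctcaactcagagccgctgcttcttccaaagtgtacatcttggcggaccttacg
Abcg8, chr6:15717681-15717980, strand -: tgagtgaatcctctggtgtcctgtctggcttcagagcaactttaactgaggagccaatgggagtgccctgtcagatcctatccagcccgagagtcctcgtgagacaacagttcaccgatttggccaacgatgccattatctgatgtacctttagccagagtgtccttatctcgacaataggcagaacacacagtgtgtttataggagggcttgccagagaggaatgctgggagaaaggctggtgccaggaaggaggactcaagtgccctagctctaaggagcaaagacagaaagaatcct

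The Abcc6 window held ACGTG once, with its first base at position -226 from the start, and the Abcd3 window held GCGTG once, at -179. In the Abcb1b window the core read on both strands within a single CACGTG at 22 bases after the start, and the Abcb1a and Abcg8 windows held neither form. GGGCGG, the GC box, lay at -147 and -2 in Abcc6, at -47 in Abcd3, at -164 in Abcb1b and at -124 in Abcb1a, counting either strand. TATAAA lay at -53 in Abcg8 on the opposite strand, so the window printed above reads TTTATA there. The motif shares below also count either strand. The windows of Abcg5 and Abcg8 shared 295 of their 300 bases, since the genes start back to back, and their deposited rows lay 205 bases apart. RefSeq windows matched 40 of the 49 members by symbol. ACGTG or GCGTG was in 23 of the 40 (57.5%), against 42.9% of 27457 rat windows of the same length. Taken apart, ACGTG was in 8 of the 40, against 19.7% of all windows, close to the background, and GCGTG in 18 of the 40, against 31.1%. CACGTG, which contains ACGTG on both strands, was in 4 of the 40 against 6.65%, GGGCGG in 55.0% against 34.9%, TATAAA in 17.5% against 14.3% and AGGTCA, a nuclear receptor half-site, in 15.0% against 15.7%. Of the members with a mean of at least 1 FPKM, 15 of 22 windows held the oxygen-response core, and of the lower members 8 of 18. The same split was not computed over all rat windows, so it is not read as a trait of these members. A match of letters is not a bound site.

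Values are FPKM, fragment counts corrected for transcript length and library depth, which allow levels of different genes to be set beside each other. Where 3 values follow a gene they are those of rats 1, 2 and 3. FPKM summed to between 527133 and 557187 in a rat library and to between 17543 and 21793 in a naked mole rat library. The sum of 557187, in rat 3, includes albumin (Alb) at 25789 FPKM, a value that was missing in rats 1 and 2. Over rows with 3 values the sums were 531212, 527133 and 531399 in rats 1, 2 and 3. Between 9866 and 10036 rat rows and 304 to 319 naked mole rat rows reached 1 FPKM. Absolute depth is unknown, but the step that 1 fragment makes in low rat values gave a depth ratio of 1.05 for rat 1 over rat 2 and of 0.983 for rat 1 over rat 3. The liver label fitted its markers in rat: the 6 hepatocyte markers with 3 values each exceeded 10 FPKM, and their sum lay between 18921 and 20763. Summed markers of Kupffer cells or macrophages lay between 123 and 189 (5 of 6 at 1 FPKM or more; the sixth, Marco, is listed at 0 on a row outside the assembled chromosomes, where 0 of 831 rows had a value above 0), of endothelium between 57.9 and 63.9 (6 of 6), of stellate cells or fibroblasts between 25.1 and 34.5 (5 of 6) and of cholangiocytes to at most 17.6 (2 of 6). T or NK cell markers summed to 1.89 to 2.57 (0 of 5), B or plasma cell markers to 0.747 to 2.15 (1 of 3) and neutrophil markers to 2.23 to 10.1 (2 of 4, Elane listed at 0). Several ABC genes are used by these other cells, and in bulk RNA fewer cells of a type and less RNA per cell cannot be told apart. The part of these cells in the levels below was not tested.

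Of the 49 members, 28 had a mean of at least 1 FPKM (57.1%, against 44.3% of all 22548 rat rows with 3 values) and 11 reached 10 FPKM (22.4%, against 17.3%). The median member stood at 1.89 FPKM and the median rat row at 0.448. Between them the 49 rows summed to 348, 410 and 364 FPKM in rats 1, 2 and 3, or 0.0655%, 0.0777% and 0.0686% of the library, over rows with 3 values. Subfamilies E and F were wholly above 10 FPKM, with 1 and 3 rows. In subfamily A, 7 of 15 rows reached 1 FPKM and 2 reached 10; in B the numbers were 6 and 1 of 8, in C 4 and 1 of 10, in D 3 and 1 of 4, and in G 4 and 2 of 8. High and low members sat in the same subfamily: C held both the most abundant row of all, Abcc6, and rows below 1 FPKM such as Abcc1 and Abcc3.

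**Figure D1:**
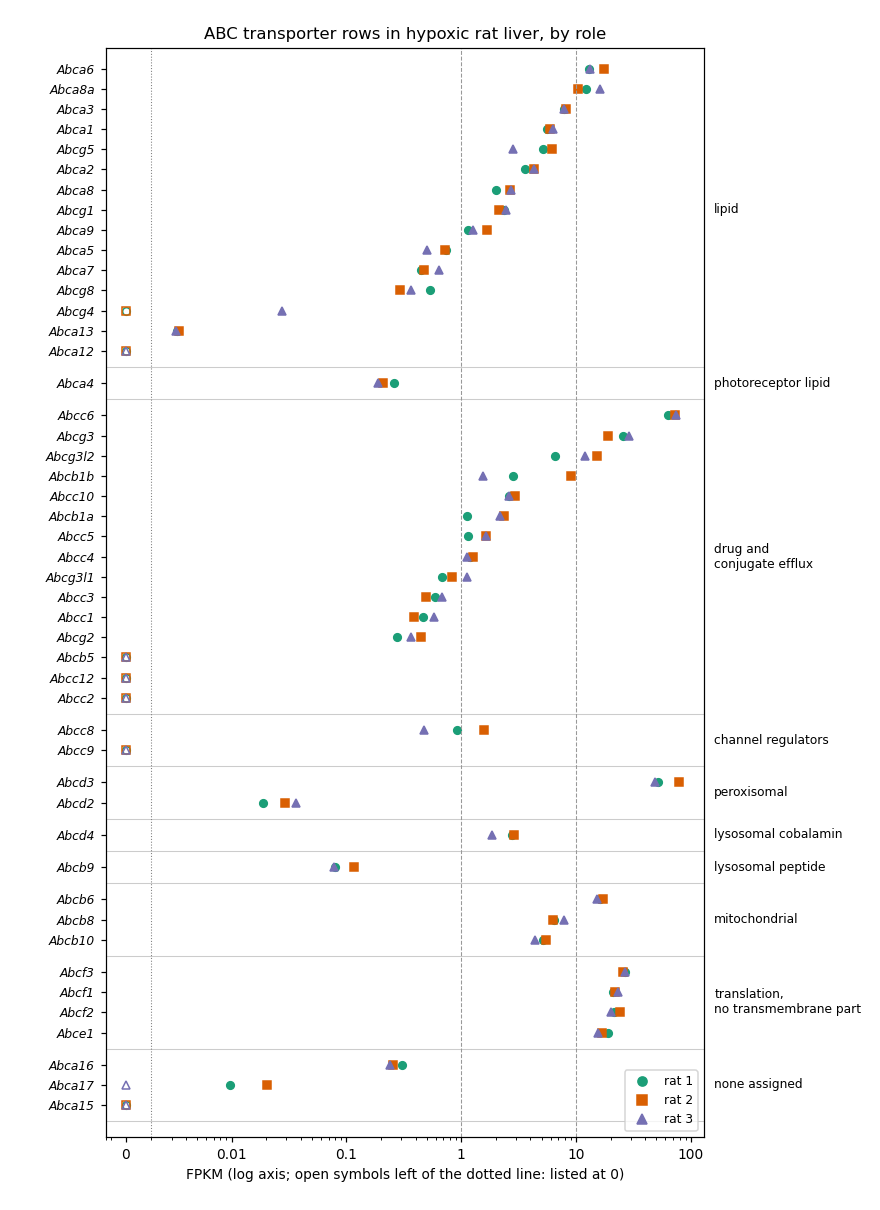
FPKM of the ABC rows named in the text in the 3 rat libraries, on a log axis, grouped by role and ordered by mean within a role; dashed lines stand at 1 and 10 FPKM and open symbols at the left are values listed at 0. Abcc6 and Abcd3 stand to the right of all others, the 4 translation rows lie close together, and 6 rows are at 0 in every library.

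Abcc6 and Abcd3 stood apart at the top. Abcc6, a liver protein that brings about ATP release and so supplies the mineralization inhibitor pyrophosphate, had 63.7, 73.4 and 73.6 FPKM in rats 1, 2 and 3. Its mean of 70.2 ± 5.63 FPKM (SD, n = 3) exceeded 96.1% of rat rows, and its libraries lay close together. Abcd3, a peroxisomal carrier of branched-chain acyl-CoA and bile acid precursors also known as PMP70, was at 52.2, 78.4 and 48.4 FPKM, a mean of 59.6 ± 16.3 (SD, n = 3). Rat 2 was the high library, and the ranges of Abcc6 and Abcd3 overlapped, so their order is not settled by these libraries. The lowest Abcd3 value still lay above the 26.9 FPKM that was the highest of the next row, Abcf3. Along the order of the 28 rows at 1 FPKM or more, 22 of the 27 neighbouring pairs had overlapping ranges and 5 did not. These 5 were Abcd3 over Abcf3, Abcf2 over Abce1, Abcb8 over Abca1, Abca1 over Abcb10 and Abca2 over Abcc10, as deposited. Abcb8 and Abca1 parted only at 6.345 against 6.343 FPKM. On values scaled by the median ratio their ranges overlapped, at 6.11 for the lowest Abcb8 and 6.29 for the highest Abca1. Under that scaling Abcf2 and Abce1 parted only at 19.84 against 19.76.

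Among lipid transporters, 9 of 15 rows reached 1 FPKM and 2 reached 10. The highest were Abca6 and Abca8a, from a run of subfamily A genes on chromosome 10 whose substrates are less well known. Abca6 was at 13.1, 17.5 and 13.2 FPKM in rats 1, 2 and 3, a mean of 14.6 ± 2.53 (SD, n = 3). Abca8a was at 12.2, 10.5 and 16.1 FPKM, a mean of 12.9 ± 2.89, so the pair overlapped and swapped order between libraries. Abca3, known in lung for loading surfactant lipid into lamellar bodies, had values of 7.82, 8.19 and 7.78 FPKM, among the tightest of all members.

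The sterol exporters were low to moderate. Abca1, which hands cholesterol and phospholipid to apolipoprotein A-I, was at 5.60, 5.96 and 6.34 FPKM. Abcg1, which moves cholesterol to formed lipoprotein particles, was at 2.37, 2.12 and 2.46 FPKM. Abca1 stood 2.37 to 2.81 times higher than Abcg1 within a library, in 3 of 3 libraries, and neither varied much. Abcg5 and Abcg8 form a single heterodimer that sends sterols into bile, and their rows differed widely. Abcg5 was at 5.13, 6.18 and 2.82 FPKM, lowest in rat 3. Abcg8 was at 0.536, 0.293 and 0.366 FPKM, highest in rat 1. Abcg5 exceeded Abcg8 by 9.58, 21.1 and 7.70 times, and the window printed above holds both starts; their ranges did not overlap, and the library order of Abcg5 was not that of Abcg8.

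The other lipid rows reached at most a mean of 4.07 FPKM, that of Abca2. Abca2, a transporter of endosomes and lysosomes, had 3.57, 4.32 and 4.32 FPKM. Abca8 had 2.02, 2.66 and 2.73 FPKM and Abca9 1.15, 1.69 and 1.28, both lowest in rat 1. Abca5 averaged 0.655 FPKM and Abca7, linked to lipid handling and phagocytosis, 0.519. Abca4, the retinoid transporter of photoreceptors, which was listed apart from the lipid rows, averaged 0.219 FPKM. Abca12, a lipid transporter of skin, was listed at 0 in every library, Abcg4, a sterol exporter of brain, was at 0, 0 and 0.0273 FPKM, and Abca13, a very long member, lay between 0.00328 and 0.00351. Of the sterol efflux partners, Scarb1, the lipoprotein receptor, averaged 34.2 FPKM, Lcat, which esterifies lipoprotein cholesterol, 420 and Npc2, a lysosomal sterol carrier, 96.8; 5 of 5 measured partners exceeded 10 FPKM.

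**Figure D2:**
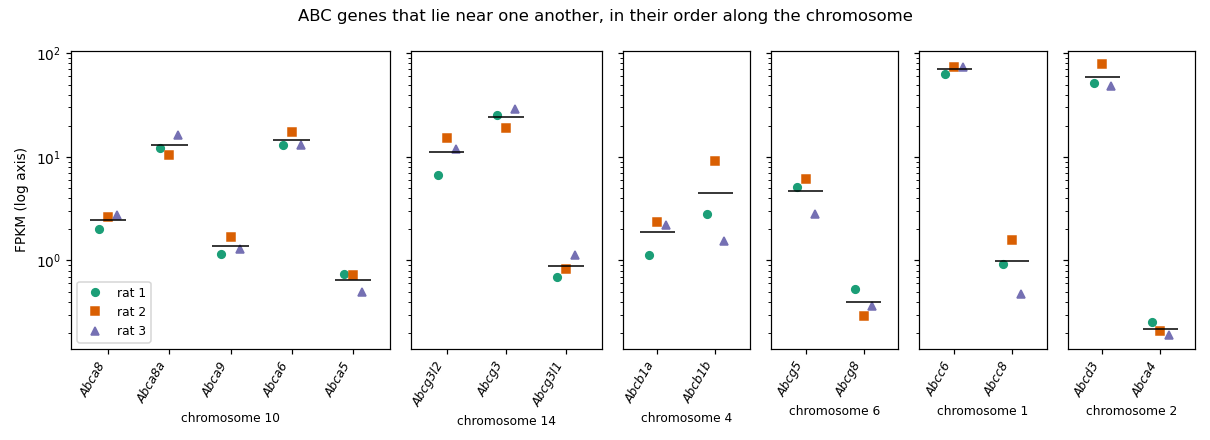
FPKM of ABC genes that lie near one another, in their order along the deposited chromosome, with 1 symbol per rat library and a bar at the mean; the vertical axis is logarithmic. On chromosome 10 the levels alternate, with Abca8a and Abca6 above 10 FPKM in each library and Abca8, Abca9 and Abca5 below 3.

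Neighbouring genes differed in level. On chromosome 10, between 99392053 and 99793593 as the deposited tables give it (build not given in the sources used here), 5 rows followed in the order Abca8, Abca8a, Abca9, Abca6 and Abca5, with gaps of 6463 to 30907 bases. Their means ran 2.47, 12.9, 1.37, 14.6 and 0.655 FPKM, so high and low neighbours alternated. Abca8a exceeded Abca8 by 3.94 to 6.03 times within a library; related copies can share reads, so this ratio is uncertain. Elsewhere on chromosome 10, Abca17 had 0.00970, 0.0204 and 0 FPKM beside Abca3 at a mean of 7.93. Abcc8 lay 97918 bases from Abcc6 and stood 46.0 to 155 times lower, and Abca4 lay 280490 bases from Abcd3.

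Of the rows listed for drug and conjugate efflux, 8 of 15 reached 1 FPKM and 3 reached 10, Abcc6 among them. The other high rows were Abcg3 and Abcg3l2, rodent relatives of the drug exporter Abcg2 for which no substrate is stated here. Abcg3 was at 25.4, 18.9 and 29.2 FPKM, a mean of 24.5 ± 5.20 (SD, n = 3). Abcg3l2 was at 6.62, 15.2 and 11.9 FPKM, a mean of 11.2 ± 4.35. Abcg3 was lowest in rat 2, where Abcg3l2 was highest. Abcg3l1, on the same stretch of chromosome 14, averaged 0.877 ± 0.224 FPKM. Copies of this family can split reads, and RefSeq gives Abcg3 as an older name of Abcg3l1, so which copy the deposited Abcg3 row stands for is uncertain. Abcg2 itself, the breast cancer resistance protein, which exports drugs, porphyrins and urate, was at 0.274, 0.445 and 0.368 FPKM.

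Abcb1a and Abcb1b encode the rodent P-glycoproteins, broad drug pumps of the canalicular membrane. Abcb1b had 2.80, 9.05 and 1.54 FPKM in rats 1, 2 and 3. This was the widest spread of any member at 1 FPKM or more: rat 2 stood 5.87 times above rat 3, and the mean of 4.46 ± 4.02 (SD, n = 3) fell to 2.17 without rat 2. Abcb1a was at 1.12, 2.36 and 2.19 FPKM, low in rat 1. Abcb1b exceeded Abcb1a in rat 1 and rat 2 but not in rat 3, and as close relatives they may share reads, which was not measured here. Both rows also overlapped that of Grm3, which was itself at 0.

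The multidrug resistance proteins of subfamily C were low apart from Abcc6. Abcc10 was at 2.60, 2.96 and 2.63 FPKM, Abcc5, an exporter of cyclic nucleotides and other anions, at 1.16, 1.64 and 1.66, and Abcc4, a pump of the blood-facing membrane, at 1.20, 1.28 and 1.12. Abcc3, which returns conjugates to blood, averaged 0.586 ± 0.0918 FPKM and Abcc1, a widely used conjugate exporter, 0.476 ± 0.0952 (SD, n = 3 each). Abcc12 and Abcb5 were listed at 0 in every library. Abcc2, the main canalicular pump for bilirubin conjugates, was also listed at 0, and so was Abcc9. Those 2 rows lie outside the assembled chromosomes in the deposited tables, where 0 of 831 rows had a value above 0, so their zeros say only how the rows are listed.

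Abcc8 and Abcc9 encode the sulphonylurea receptors, which regulate potassium channels and are not known as pumps. Abcc8 was at 0.923, 1.59 and 0.475 FPKM, just below the 1 FPKM line with a mean of 0.997. Of the channel pores, Kcnj8 averaged 3.57 ± 0.236 FPKM and Kcnj11, the usual partner of Abcc8, was at 0.0524, 0.403 and 0.0343. Both had their highest value in rat 2, as did 49.0% of all rat rows at 1 FPKM or more, and Kcnj11 was too low in the other libraries for an order to be read.

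**Figure D3:**
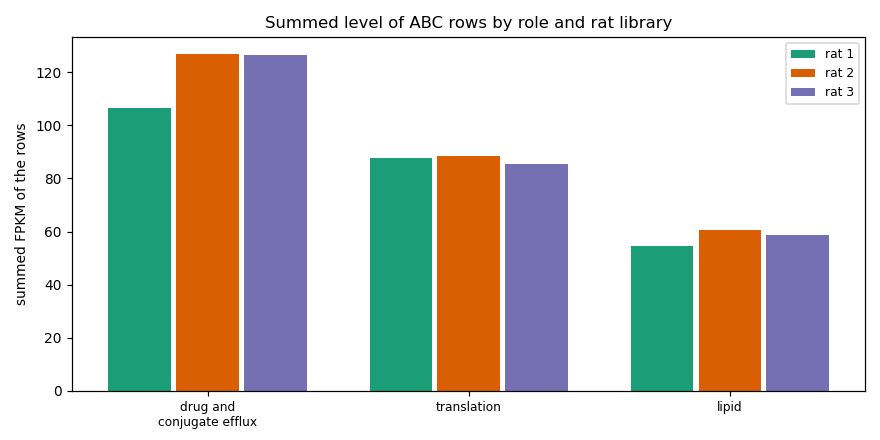
Summed FPKM of the ABC rows of 3 roles in each rat library, with bars from 0. As deposited, the translation sum stayed between 85.6 and 88.5, and the drug and conjugate sum was 107, 127 and 126 in rats 1, 2 and 3. Abcc6 alone gave 63.7, 73.4 and 73.6 of the drug and conjugate sum. Sums were not computed on values scaled by the median ratio.

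Peroxisomal members were led by Abcd3, described above. Abcd2, a carrier of fatty acyl-CoA, was far lower, at 0.0187, 0.0294 and 0.0367 FPKM. Of 9 partner genes measured, 9 exceeded 1 FPKM and all 9 were highest in rat 2, against 49.0% of all rat rows at 1 FPKM or more; on values scaled by the median ratio it was 7 of 9, against 36.4%. Ehhadh, an enzyme of peroxisomal fatty acid oxidation, was at 52.0, 94.0 and 68.6 FPKM, and Pex19, which brings membrane proteins to the peroxisome, at 42.8, 47.1 and 44.2. Abcd4, which sits in lysosomes and helps export cobalamin, had 2.79, 2.88 and 1.84 FPKM, and its partner Lmbrd1 averaged 10.9 FPKM. Abcb9, a lysosomal peptide transporter, averaged 0.0918 FPKM.

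Mitochondrial members were moderate in level. Abcb6, a porphyrin transporter, was at 16.3, 17.0 and 15.1 FPKM, a mean of 16.1 ± 0.981 (SD, n = 3). Abcb8, an inner-membrane transporter, was at 6.48, 6.34 and 7.81, and Abcb10, needed for heme synthesis, at 5.15, 5.43 and 4.36. Abcb6 stood above both Abcb8 and Abcb10 without overlap. Of 9 measured partners in iron-sulphur and heme synthesis, 8 exceeded 10 FPKM, among them the scaffold Iscu at 160 FPKM and ferrochelatase (Fech) at 12.8.

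The 4 members without a membrane part were alike in level, each with a mean above 10 FPKM. Abcf3 was at 26.6, 25.7 and 26.9 FPKM, Abcf1, which binds initiation factor eIF2, at 21.1, 21.8 and 23.2, and Abcf2 at 21.3, 24.2 and 20.0. Abce1, which splits ribosomes after termination, was at 18.9, 16.7 and 15.5 FPKM. As deposited, their summed level stayed between 85.6 and 88.5 FPKM. Single members peaked in different libraries: Abce1 in rat 1, Abcf2 in rat 2 and Abcf1 and Abcf3 in rat 3. On values scaled by the median ratio, Abcf3 was highest in rat 1, at 27.9, 24.8 and 26.7 in rats 1, 2 and 3. Abce1 then stood at 19.8, 16.1 and 15.4. The sum was not computed on that scale, so no steady total is read from it. The SD of log2(FPKM + 1) was 0.132 for Abcf2 and 0.137 for Abce1, close to the median of 0.137 over all rat rows at 1 FPKM or more, and was smaller for Abcf1 and Abcf3. The Abcf1 row overlaps that of Ppp1r10; whether counting used strand is not given, so their reads may not be separate, and the same holds for Abcc10 with Dlk2 and for Abcc1 and Abca13 with loci that carry no gene name. Of 6 partners in ribosome recycling and eIF2, 4 exceeded 10 FPKM, for instance the release factors Etf1 at 21.8 ± 1.24 and Gspt1 at 22.2 ± 0.644 (SD, n = 3 each).

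The lowest members took values in small whole-number ratios. Corrected for the depth ratios above, the Abcd2 values stood as 2 to 3 to 4 in rats 1, 2 and 3, Abcb9 as 5 to 7 to 5, Abca17 as 1 to 2 to 0 and Abca13 as 1 to 1 to 1, each within 1% of whole numbers. These are ratios, and the fragments behind them may be any common multiple. No order of libraries is read here from such values. Abca15 was listed at 0 and Abca16 averaged 0.265 FPKM; no role was assigned to either or to Abca17. In all, 15 members had a mean below 1 without being 0 throughout, and 6 were 0 throughout, 4 of them on assembled chromosomes.

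**Figure D4:**
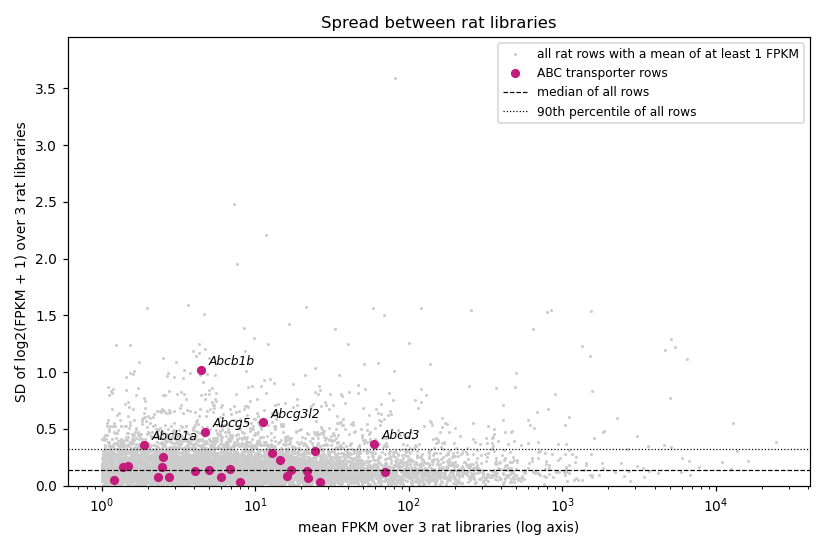
SD of log2(FPKM + 1) over the 3 rat libraries against the mean FPKM on a log axis, for every rat row averaging 1 FPKM or more (grey) and the ABC rows among them that the text names; lines mark the median and the 90th percentile of all rows. The 5 labelled ABC rows lie above the 90th percentile.

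Spread between the rat libraries was compared on log2(FPKM + 1). As deposited, the median SD was 0.157 over the 28 members at 1 FPKM or more and 0.137 over all 9994 such rat rows. After median-ratio scaling the median over members was 0.141. The median over all rows was not computed on that scale, so a wider spread is not read as a trait of the members. A group of 6 members exceeded the 90th percentile of all rows, an SD of 0.323, among them Abcb1b at 1.02, Abcg3l2 at 0.560, Abcg5 at 0.474, Abcd3 at 0.368 and Abcb1a at 0.362. The ratio of the highest to the lowest library was above 2 in 4 of the 28 (14.3%), against 6.01% of all rows, and above 1.5 in 9 (32.1%, against 18.9%). The 4 were Abcb1b, Abcg3l2, Abcg5 and Abcb1a, and Abcb1a came to 1.93 on values scaled by the median ratio. All but the sterol exporter Abcg5 come from the drug and conjugate list, which follows family membership. The shares of all rows above 2 and above 1.5 were not computed on scaled values. At the other end, Abcf3 had an SD of 0.0323, Abca3 0.0365, Abcc4 0.0521 and Abcf1 0.0671 as deposited. This order did not hold on values scaled by the median ratio, where the highest library stood over the lowest by 1.06 times in Abca3, 1.09 in Abcc10 and in Abcc6, 1.12 in Abcf3 and 1.13 in Abcc4, with Abcf1 and Abca1 between Abcc6 and Abcf3.

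Rat 2 was the highest library for 16 of the 28 members (57.1%, against 49.0% of all rows at 1 FPKM or more), rat 3 for 11 and rat 1 for 1. After scaling by the median ratio the counts were 11, 9 and 8, for rats 2, 3 and 1, and rat 2 held 39.3% of members against 36.4% of all rows. Under that scaling rat 2 remained the highest library for Abcb1b, Abcg3l2, Abcg5, Abcd3 and Abcb1a. In the same libraries hepatocyte markers summed to 20136, 20763 and 18921 FPKM, but they did not share an order: Ttr was highest in rat 2 at 12914 FPKM, while Tat, Serpina1 and Apob were lowest there. Macrophage markers summed to 123, 141 and 189, and the red cell gene Hbb had 54.4, 357 and 348. The part of these differences in the spread was not tested. The nuclear receptors and other regulators listed for ABC genes were measured in the same libraries, and 12 of 12 reached 1 FPKM. The xenobiotic receptors Nr1i2 (PXR) and Nr1i3 (CAR), which act on drug transporter genes, were at 133, 140 and 125 FPKM and at 30.5, 47.3 and 23.4 FPKM. Nr1h3 (LXR alpha), the oxysterol receptor that acts on Abca1, Abcg1, Abcg5 and Abcg8, was at 57.5, 74.9 and 65.4, and Ppara, which acts on peroxisomal genes, at 34.1, 44.6 and 27.6. Rat 2 was highest for 9 of the 12 regulators as deposited and for 8 of 12 after scaling, against 49.0% and 36.4% of all rows. Nr1i2 was no longer highest in rat 2 after scaling. As deposited, the regulators not highest in rat 2 were Rxra at 135, 121 and 142 FPKM, Srebf2 at 5.48, 6.17 and 8.57 and Hnf4a at 136, 120 and 116. Over 3 libraries no relation between a regulator and a transporter can be estimated, and the part of the regulators in the spread was not tested.

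**Figure D5:**
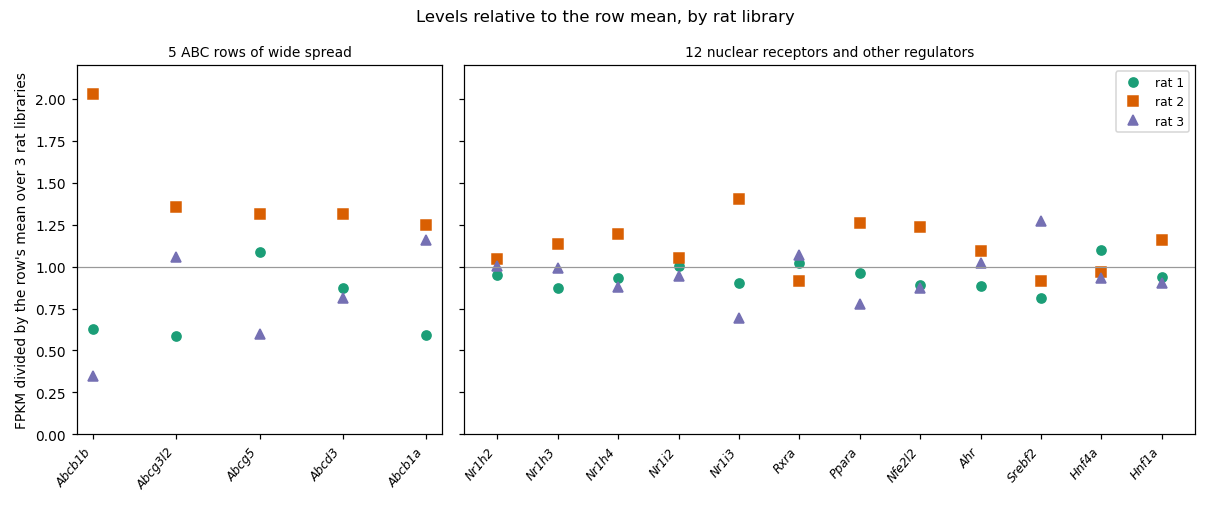
FPKM of each rat library divided by the row's mean over the 3 libraries, for 5 ABC rows of wide spread (left) and the 12 listed regulators (right); the line stands at 1. Rat 2 is the highest library in the 5 rows at the left and in 9 of the 12 at the right, all but Rxra, Srebf2 and Hnf4a.

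Other ABC proteins go by other symbols and fall outside the rule. Tap1 and Tap2, which carry peptides for antigen presentation, averaged 5.56 ± 0.891 and 8.97 ± 2.03 FPKM (SD, n = 3 each), and Cftr, a chloride channel used in liver by cholangiocytes, averaged 0.0685 FPKM. Of the genes listed for scaffolding and trafficking at the canalicular membrane, 7 of 7 exceeded 1 FPKM. Among them radixin (Rdx) averaged 19.8 ± 1.53 FPKM, ezrin (Ezr) 3.33 ± 0.673 and the scaffold Slc9a3r1 156 ± 38.9.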

How the data were processed

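Polyadenylated liver RNA was sequenced, and the authors deposited 1 gene table per library with FPKM values, a locus and a status, per the file headers. Cufflinks 2.1.1, TopHat2 2.0.9, Picard 1.137 and Bowtie2 2.1.0 appear in the submitters' processing notes, without roles. For the rat tables, neither build nor annotation was given in the sources used here. Confidence bounds, also in FPKM in the deposited tables, were not used. FPKM carries no counts, so no counting interval was computed.

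Rows were joined by symbol and locus, and values of status HIDATA were treated as missing; all 49 members carry the status OK. Members, role lists and partner lists were chosen with earlier results of these data known. Results of 2 members are not reported here, and every other member is named; members reaching 10 FPKM, or from 1 to 10 in a role list, were to get each library's value. The drug and conjugate list follows family membership, so a member listed there need not carry drugs. The planned limma comparison between species held no ABC symbol and was not used; of 62 partner genes, 2 had a naked mole rat row and were not tested. With 1 group of 3 libraries left, levels are described without a test. Spread is the SD of log2(FPKM + 1). The ratio of what 1 fragment is worth in each library was taken from rows under 0.1 FPKM. Alternatives were scaling, thresholds, pseudocount and leaving out each rat library. Promoter windows are from RefSeq (GRCr8), first listed start per gene. Python 3.11.15, pandas 2.3.3 and numpy 2.4.6 were used, and the computations were tested on simulated data.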

Additional observations from a re-analysis of the deposited data

How the results depend on the processing

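The number of members with a mean of at least 1 FPKM was 28 as deposited and stayed between 28 and 33 under every alternative run: 28 after median-ratio scaling, 32 with each library scaled to a fixed total, 28 to 29 with 1 rat library left out, 28 when each library had to reach 1 FPKM and 33 at a mean of 0.5. The number at 10 FPKM or more was 11, 11 after median-ratio scaling, 16 with each library scaled to a fixed total, 10 to 12 with 1 library left out and 10 when each library had to reach 10. The median SD of log2(FPKM + 1) was 0.157, against 0.141 after median-ratio scaling, 0.139 to 0.169 with 1 library left out and 0.197 with a pseudocount of 0.1. Leaving out 1 library moved only the mean of Abcb1b by more than 1.5 times, to 2.17 FPKM without rat 2; with 3 libraries a mean cannot move by 1 SD in this way, so that measure shows no stability. Scaling to a fixed total raised all levels together and moved 27 of 28 means by more than 1 SD. No paired analysis was possible because no ABC row was found in the naked mole rat tables used here. No animal could be in both groups either, since the groups are different species. The planned comparisons between species and their alternatives gave no value for these genes, for want of those rows. A group of 3 libraries is too small to name an outlying one, and low values limit what can be read of members under 0.1 FPKM.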
